A study of Mus musculus with 6 samples.

Results

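The 36 genes described here are 25 immediate-early genes and 11 heat shock genes, taken by symbol from the 32285 genes of a single-cell expression matrix. The matrix came from MOC-2 tumors, which grow from a transplanted mouse line of head and neck squamous cell carcinoma injected under the skin of male mice. There were 3 tumors that received vehicle (DMSO) and 3 that received the experimental agent, by injection into the tumor, and cells were collected 24 hours later, sorted as live with a viability dye, tagged by tumor and pooled. The treatment protocol of the series names the following reagents, and which of them the treated tumors received is not stated in it: clodronate, galunisertib, epcadostat, L-NMMA, R848, Nw-Hydroxy-nor-L-arginine, 4-1BB ligand, 5'ppp-dsRNA/Lyovec, 2'3'-c-di-AM(PS)2, 2-C1-IB-MECA and Copper(II) diethyldithiocarbamate. MOC-2 is 1 line, so the carcinoma cells of all 6 tumors share their origin, and the host compartments are those of mice whose strain is not given in the labels used here. No label ties a barcode or a tag to a tumor, so vehicle and treated tumors were not compared, the data count as 1 pooled sample, and no p-value is given.

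Immediate-early genes are transcribed within minutes of a growth factor, cytokine or stress signal, without new protein synthesis, when the MAP kinase pathway activates serum response factor, its ETS partners and CREB on their promoters. Many of their products are transcription factors of the AP-1 and EGR families, and others, such as the phosphatases Dusp1 and Dusp2 and the RNA-binding protein Zfp36, end the response. Heat shock genes are driven by heat shock factor 1, which binds heat shock elements when unfolded protein accumulates, and encode chaperones that refold or hold proteins. Enzymatic dissociation and sorting of solid tissue are known to induce both groups, so their level in a cell suspension need not be their level in the tumor.

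The deposited cells numbered 14818, of which 13728 had at least 500 genes and under 15% mitochondrial counts and were not called doublets. The barcodes carry 6 suffixes, called barcode sets 1 to 6 below, with 826 to 3783 kept cells and 7354560 to 38798439 unique molecular identifiers (UMIs, counted molecules) each. The sets shared 0 barcodes, and no label says whether a set is a tumor, a treatment group or another part of the pool. A gap between sets therefore cannot be told apart from a gap between tumors or treatments. The carcinoma-like gate, which asked for at least 2 UMIs of Xist and none of Ptprc or of the Y-linked genes, held 7395 cells with a median of 11220 UMIs. Xist was counted at 1348 CPM inside this gate and at 13.8 CPM among macrophage or monocyte-like cells, and Y-linked genes at 0 and 193 CPM. The carcinoma-like gate used both, and the host gates asked for fewer than 2 UMIs of Xist. These values describe the gates and are no result. Marker gates for host cells held 1633 macrophage or monocyte-like, 384 T cell-like, 246 NK cell-like, 216 fibroblast-like, 167 osteoclast-like, 74 mast cell or basophil-like, 59 endothelial-like, 55 pericyte or smooth muscle-like and 54 neutrophil-like cells, and 3411 cells met no gate. The doublet caller marked 0.291% of cells, far under the 6% assumed for it, so doublets were in effect not removed. Cells near a cut included 207 carcinoma-like cells with exactly 2 UMIs of Xist and 275 macrophage or monocyte-like cells with exactly 3 markers. A level is given as CPM, the usual counts-per-library scale, from the summed UMIs of a class. It scales classes to the same total, but the CPM of many members still differed with depth within a class, as given below. Because 3' counting gives about 1 tag per transcript, levels are not divided by gene length. A gene entered a comparison when it had at least 50 counts in the cells compared and its higher level was at least 4 times the level that 3 counts give, and it was called higher or lower at 2-fold or more. Intervals are exact 95% Poisson intervals and cover counting error only.

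The promoters of 5 members are shown because they hold the motifs through which the groups are known to be driven, with the motif in capitals and everything else in lower case. Each is the stretch of 250 bases before the start site, written 5′ to 3′ on the gene's own strand, from RefSeq on GRCm38.p6. The first pair, Hspa1b at chr17:34959239-34959488 and Hspa1a at chr17:34972157-34972406, both on the minus strand, belongs to the stress-inducible HSP70 genes, and the capitals mark a heat shock element (GAANNTTC or TTCNNGAA).
Hspa1b: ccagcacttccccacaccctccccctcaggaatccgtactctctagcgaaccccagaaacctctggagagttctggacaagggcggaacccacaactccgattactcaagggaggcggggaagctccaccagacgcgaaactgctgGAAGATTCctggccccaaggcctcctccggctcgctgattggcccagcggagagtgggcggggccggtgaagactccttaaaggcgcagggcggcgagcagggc
Hspa1a: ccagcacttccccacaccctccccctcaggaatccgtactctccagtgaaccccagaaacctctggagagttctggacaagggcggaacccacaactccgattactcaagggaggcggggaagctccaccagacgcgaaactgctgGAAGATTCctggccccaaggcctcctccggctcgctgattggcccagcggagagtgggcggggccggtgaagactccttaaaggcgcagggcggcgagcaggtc
These stretches were equal at 247 of 250 positions and carried the element at the same place, beginning 104 bases before the start. The promoter of Hspe1, which encodes the mitochondrial co-chaperonin HSP10, lies at chr1:55087898-55088147 on the plus strand and holds 3 overlapping matches of the same element.
Hspe1: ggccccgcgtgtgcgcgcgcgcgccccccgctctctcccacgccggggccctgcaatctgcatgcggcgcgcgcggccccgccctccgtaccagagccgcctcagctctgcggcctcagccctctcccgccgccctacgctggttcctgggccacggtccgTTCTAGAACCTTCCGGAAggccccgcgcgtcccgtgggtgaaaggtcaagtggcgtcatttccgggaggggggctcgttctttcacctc
The window is shared: 1 promoter window of Hspd1, which encodes the partner chaperonin HSP60, overlaps the Hspe1 window by 285 bases on the opposite strand. Among immediate-early genes, Dusp1 at chr17:26508473-26508722 on the minus strand carried a cyclic AMP response element (TGACGTCA), and Zfp36 at chr7:28379229-28379478 on the minus strand carried a CArG box, the core of the serum response element.
Dusp1: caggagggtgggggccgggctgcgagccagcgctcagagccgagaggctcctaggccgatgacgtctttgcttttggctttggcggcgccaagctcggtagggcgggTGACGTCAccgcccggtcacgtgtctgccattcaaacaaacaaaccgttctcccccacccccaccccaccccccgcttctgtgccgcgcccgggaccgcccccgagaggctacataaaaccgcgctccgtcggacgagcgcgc
Zfp36: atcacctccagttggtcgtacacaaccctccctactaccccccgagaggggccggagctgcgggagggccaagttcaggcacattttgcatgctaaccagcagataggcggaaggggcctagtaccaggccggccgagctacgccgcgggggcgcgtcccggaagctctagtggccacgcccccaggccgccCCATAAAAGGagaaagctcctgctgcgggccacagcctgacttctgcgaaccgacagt
Promoter windows of 300 bases were given for 28 of the 36 members. A heat shock element on either strand was present in 8 of 9 heat shock members, all but Dnajb1, against 17.0% of all 27025 genes with a promoter and 3 of 19 immediate-early members (Jun, Egr2 and Ccn1). A CArG box was found in 2 of 19 immediate-early members, Zfp36 and Egr2, against 1.81% of all genes, and a cyclic AMP response element in 2, Dusp1 and Btg2, against 2.03%. The AP-1 site TGANTCA was found in 0 immediate-early members and 1 heat shock member, Bag3, against 8.97% of all genes. A match is a description of letters in a window, and elements farther away were not searched.

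In carcinoma-like cells the highest immediate-early members were Ier3, a stress-induced survival factor, and Junb and Jund, AP-1 subunits, and the highest heat shock members were the small chaperone Hspb1, the cytosolic HSP90 gene Hsp90aa1 and the constitutive HSP70 gene Hspa8. The values by barcode set follow by role, each list in the order of sets 1 to 6, and set 6 or set 4 decided several calls in the smaller classes further below. Among AP-1 genes, Fos (chr12:85473890-85477273, plus strand) stood at 275, 451, 811, 531, 419 and 424 CPM, Jun (chr4:95049034-95052222, minus strand) at 389, 453, 549, 568, 482 and 471 CPM and Junb at 1171, 1701, 1896, 1525, 1273 and 1713 CPM. Fos was lowest in set 1 and highest in set 3, with a 2.95-fold gap between them, and the other sets lay close together. Fosb stood at 249, 391, 629, 499.8, 287 and 313 CPM, Fosl1 at 148, 182, 179, 172, 194 and 189 CPM and Jund at 637, 806, 1578, 903, 878 and 826 CPM. The stress factor Atf3, a partner of Jun, stood at 103, 165, 428, 169, 165 and 177 CPM. Set 3 alone lay apart for Jund and Atf3.

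The zinc-finger factor Egr1 stood at 572, 745, 946, 781, 653 and 1115 CPM, and its relatives were far lower, Egr3 at 105, 104, 81.5, 96.9, 65.9 and 107 CPM and Egr2 at 5.77, 12.0, 13.5, 9.95, 8.24 and 10.6 CPM. Egr1 was highest in set 6, not in set 3. Of the genes that restrain the response, the MAP kinase phosphatase Dusp1 stood at 230.1, 348, 498, 430.1, 386 and 375 CPM and its relative Dusp2 at 31.0, 61.8, 22.2, 61.9, 34.5 and 32.2 CPM. Zfp36, which binds AU-rich messages and speeds their decay, stood at 199, 390.3, 392, 397, 355 and 386 CPM. Both Dusp1 and Zfp36 were lowest in set 1, and Zfp36 was nearly level over sets 2 to 6. The antiproliferative cofactors stood at 399, 394, 628, 431, 553 and 486 CPM for Btg1 and 53.2, 75.1, 63.6, 89.8, 91.4 and 59.8 CPM for Btg2.

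The early response genes Ier2, Ier3 and Ier5 share a name and not a family. Ier3 stood at 1682, 1490.2, 1461, 1590.4, 2254 and 2250.4 CPM, highest in sets 5 and 6, Ier2 at 226, 289, 359.9, 311, 266 and 326 CPM, and Ier5 at 199.6, 251, 292, 274, 273 and 325 CPM. The secreted matricellular proteins, known targets of YAP, stood at 229.8, 314, 256, 337, 282 and 254 CPM for Ccn1 and 21.3, 47.4, 115, 28.2, 28.9 and 30.6 CPM for Ccn2. Set 3 held the highest Ccn2, over 2 times the next set. Among Krüppel-like factors, Klf6 stood at 417, 475, 871, 507, 535 and 508 CPM, Klf4 at 235, 298, 399, 311, 254 and 269 CPM and Klf2 at 136, 125, 161, 162, 201 and 155 CPM. The orphan nuclear receptor Nr4a1 stood at 108, 185, 92.8, 141, 116 and 124 CPM and the growth regulator Myc at 87.2, 74.9, 113, 80.6, 89.4 and 92.1 CPM.

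Among heat shock genes, the inducible HSP70 genes lie near each other on chromosome 17 (Hspa1a, chr17:34969190-34972156, minus strand). Hspa1b stood at 345, 569.7, 1008, 667, 766 and 646 CPM and Hspa1a at 159, 251, 432, 379, 379 and 331 CPM. For both, set 1 was lowest and set 3 highest. Their transcripts shared 49.3% of the 90-base windows of Hspa1a and 0 windows in the last 500 bases, the part that 3' counting reads, so the division of reads between them rests on the ends that differ. The constitutive Hspa8 stood at 1042, 1204, 1447, 1148, 1502 and 1105 CPM and the exchange factor Hsph1, of the HSP110 family, at 261, 295, 319.9, 308, 343 and 269.6 CPM. The J-domain co-chaperones stood at 155, 250.2, 413, 209, 294 and 228 CPM for Dnajb1 and 478, 496, 605, 486, 565 and 496 CPM for Dnaja1. Hspa8 moved less between sets than Hspa1b did.

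Hsp90aa1 stood at 1302, 1433, 1618, 1333, 1455 and 1197 CPM, the HSP70 exchange factor Bag3 at 103, 119.8, 115, 119, 115 and 111 CPM and Hspb1 (chr5:135887919-135889563, plus strand) at 1434, 1769, 3283, 1674, 2560.0 and 1768 CPM. Hspb1 was highest in sets 3 and 5. The mitochondrial chaperonin genes stood at 428, 495, 422, 432, 447 and 353 CPM for Hspd1 and 625, 694, 625, 713, 697 and 604 CPM for Hspe1, and set 3 was not highest for either. Over all 36 members, set 1 was lowest for 26 and set 3 was highest for 19. The cells of set 3 numbered 322, the fewest of the 6 sets.

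**Figure D1:**
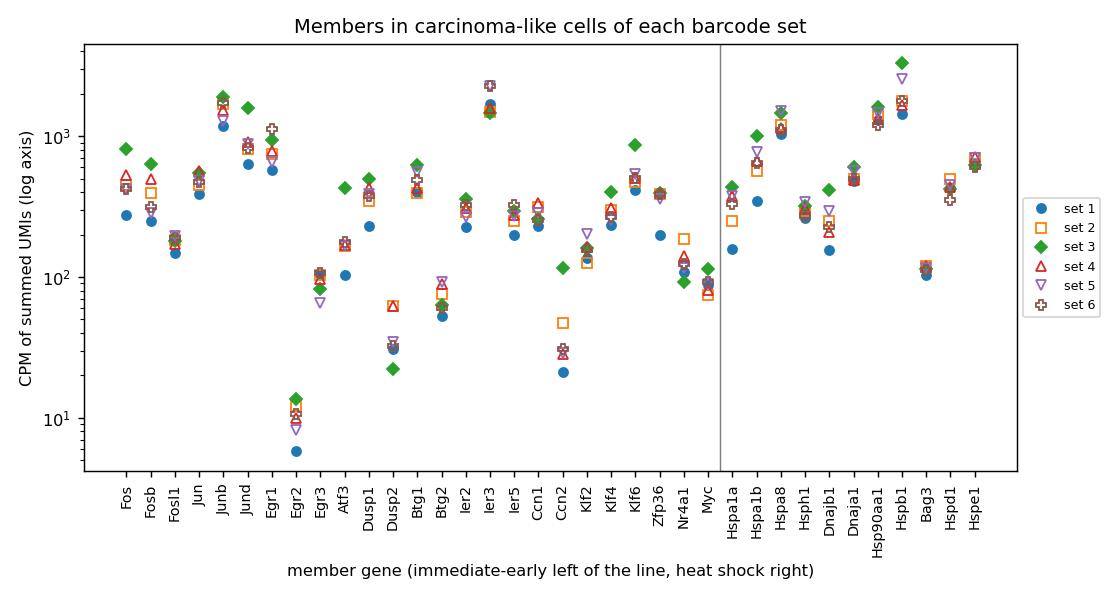
Level of members in carcinoma-like cells, in CPM on a log axis, with 1 point for each of the 6 barcode sets. Fos runs from 275 CPM in set 1 to 811 CPM in set 3 and Hspb1 from 1434 CPM in set 1 to 3283 CPM in set 3, while Hspd1 and Hspe1 vary little between sets.

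Across cell classes, the summed immediate-early level differed 6.27-fold from lowest to highest, and the summed heat shock level 1.81-fold. The immediate-early sum was highest in neutrophil-like cells at 23052 CPM (95% interval 22206 to 23922), followed by macrophage or monocyte-like cells at 15886 CPM (95% interval 15771 to 16001). The next were pericyte or smooth muscle-like cells at 13995 CPM (95% interval 13597 to 14402), fibroblast-like cells at 13221 CPM (95% interval 13057 to 13386) and endothelial-like cells at 11646 CPM (95% interval 11306 to 11994). The mast cell or basophil-like sum of 10263 CPM (95% interval 9821 to 10720.3) and the carcinoma-like sum of 9861 CPM (95% interval 9841 to 9881) were neighbours whose intervals overlapped. The lowest were T cell-like at 9038 CPM (95% interval 8867 to 9211), NK cell-like at 7390.0 CPM (95% interval 7224 to 7559) and osteoclast-like cells at 3676 CPM (95% interval 3581 to 3772). The carcinoma-like sum itself ran from 7909 CPM in set 1 to 12836 CPM in set 3, so the endothelial, mast cell and T cell values lay inside the range of single carcinoma sets. Without Btg1, Klf2 and Dusp2, which lymphocytes are known to express, the T cell-like sum was 6594 CPM, the macrophage or monocyte-like sum 12705 CPM and the carcinoma-like sum 9202 CPM.

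The heat shock sum was highest in NK cell-like cells at 8266 CPM (95% interval 8091 to 8445), and other classes were highest without some sets. Without set 6 the NK cell-like value was 5832 CPM, and carcinoma-like cells were highest at 7721 CPM. Without set 1 endothelial-like cells were highest at 9096 CPM against 8677 CPM, and without set 2 mast cell or basophil-like cells at 9282 CPM against 9259 CPM. Mast cell or basophil-like, T cell-like and carcinoma-like cells followed at 7815, 7734 and 7671 CPM, with overlapping intervals, and endothelial-like and pericyte or smooth muscle-like cells at 7482 and 7276 CPM overlapped with each other. Osteoclast-like cells stood at 6892 CPM, macrophage or monocyte-like cells at 5568 CPM, fibroblast-like cells at 5103 CPM and neutrophil-like cells at 4566 CPM. The carcinoma-like values by set, from 6332 CPM in set 1 to 10289 CPM in set 3, spanned those of most host classes. Depth differed between classes, from a median of 1673 UMIs in neutrophil-like cells to 11220 in carcinoma-like cells, and so did the median mitochondrial share, from 0.474% in neutrophil-like to 4.66% in osteoclast-like cells. Their part in these levels was not tested, beyond the comparison within a depth window below.

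**Figure D2:**
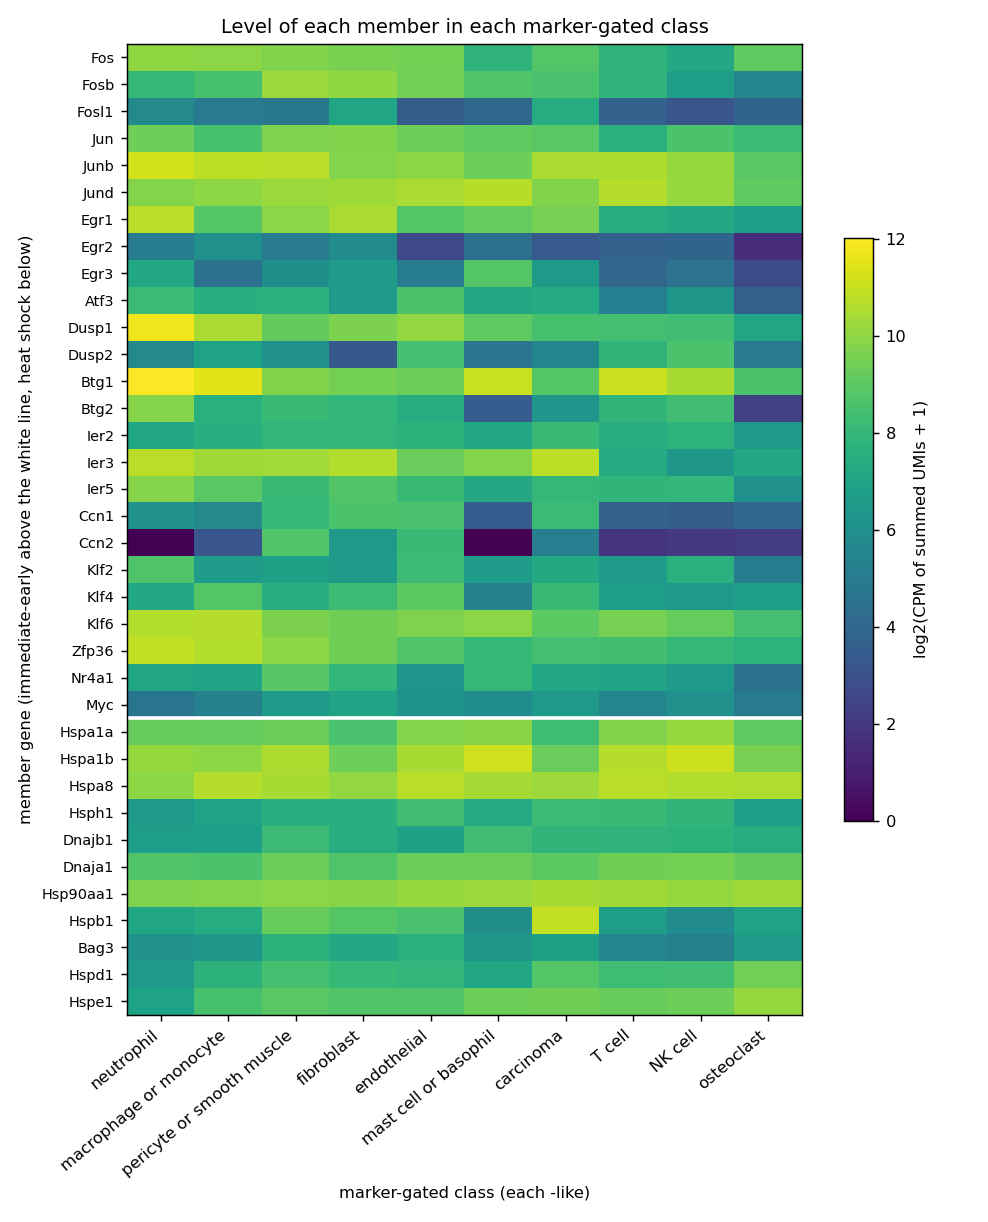
Heat map of the level of each member (rows) in the 10 cell classes (columns), as log2 of CPM of summed counts plus 1. Btg1 and Dusp1 are highest in neutrophil-like cells at 4130 and 3414 CPM, Hspb1 is highest in carcinoma-like cells at 1898 CPM, and Hspa1b in mast cell or basophil-like and NK cell-like cells at 2296 and 2222 CPM.

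Macrophage or monocyte-like cells were higher than carcinoma-like cells in 8 immediate-early members, among them Zfp36 and Dusp1, which restrain the response. Over the 6 sets their Btg1 stood at 2779, 3245, 4870.0, 2609.8, 3409 and 2626 CPM, Zfp36 at 1172, 1903, 2474, 1488, 1553 and 2287 CPM and Dusp1 at 1225, 1342, 1637, 1345, 1824 and 1573 CPM. All of these values lay above every carcinoma-like set. The log2 ratio to carcinoma-like cells was 2.70 (95% counting interval 2.67 to 2.72) for Btg1, 2.23 (95% counting interval 2.19 to 2.26) for Zfp36 and 1.99 (95% counting interval 1.96 to 2.03) for Dusp1. Klf6, at 1479, 1482, 2060.2, 1519, 1770.4 and 1974 CPM, was higher by 1.69, and Fos, at 895, 1039.5, 957, 906, 902 and 1264 CPM, by 1.12. Each was above the carcinoma-like value of the same set in 6 of 6 sets, and the Fos ratio was 1.00, just under 2-fold, without set 1. Egr2, a gene of macrophage differentiation, stood at 54.3, 97.2, 124, 47.1, 69.9 and 65.6 CPM and was higher by 2.78, Btg2 at 106, 138, 202, 199, 256 and 359 CPM by 1.39, and Dusp2 at 72.7, 54.2, 110.4, 131, 185 and 176 CPM by 1.45, the last in 5 of 6 sets. These 8 of 25 immediate-early members compare with 15.3% of all 11583 genes in the comparison that were 2-fold or more higher.

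The members lower in macrophage or monocyte-like cells were 5 immediate-early and 4 heat shock genes, against 30.4% of all genes. The matricellular Ccn1 stood at 27.6, 142, 18.4, 52.9, 49.4 and 15.4 CPM, a log2 ratio of -2.55 (95% counting interval -2.75 to -2.36), and the Fos relative Fosl1 at 24.9, 40.7, 23.0, 27.7, 42.2 and 23.2 CPM, a ratio of -2.53. On the same scale Egr3 was lower at -2.15, Ccn2 at -2.05 and Myc at -1.17. None of the 5 was higher in any of the 6 sets. Among heat shock genes, Hspb1 stood at 78.2, 359, 78.2, 182, 268 and 56.0 CPM in the macrophage sets, a ratio of -3.47 (95% counting interval -3.58 to -3.37), and it was lower in 6 of 6 sets. Hsph1 followed at -1.28, Dnajb1 at -1.06 and Hspd1 at -1.06, with Hspe1 just outside the threshold at -0.88, and Dnajb1 was no longer called without set 5, at -0.94. Hspa1b and Hspa1a stood at 339, 872, 786, 1187, 1357 and 1480.0 CPM and 314, 371, 244, 608, 853 and 928 CPM, with set 1 lowest for Hspa1b and set 3 for Hspa1a. The ratio was 0.91 for Hspa1a, just under the 2-fold threshold. The median log2 ratio was 0.22 for the immediate-early genes and -0.63 for the heat shock genes, beside -0.42 for all genes. The 10 fibroblast markers summed to 1151 CPM in macrophage or monocyte-like and 3268 CPM in carcinoma-like cells, and the 58 immune markers to 9233 and 354 CPM; the part of RNA from other cells in the member levels was not tested.

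The higher Fos of macrophage or monocyte-like cells was not found, and its direction was reversed, in cells of 1500 to 5000 UMIs. With cells thinned to equal depth, given further below, the share with a Fos UMI was still higher in macrophage or monocyte-like cells. Between 1500 and 5000 UMIs there were 1066 macrophage or monocyte-like cells, with a median of 2509 UMIs, and 901 carcinoma-like cells, with a median of 3717 UMIs. Fos then stood at 1009 CPM in macrophages and 1532 CPM in carcinoma cells, a log2 ratio of -0.60 (95% counting interval -0.67 to -0.54), the opposite direction. Btg2 reversed too, from 1.39 to -0.42. Dusp1 stood at 1567 and 1433 CPM, within 2-fold. The members that were still higher in macrophages were Btg1 at 2.14, Egr2 at 1.95, Klf6 at 1.05 and Dusp2 at 1.03, 4 of 25 against 13.8% of 8940 genes. Of these, Dusp2 was under 2-fold without set 3, 5 or 6, at 0.99, 0.72 and 0.97, and at 1.72 without set 4, and Klf6 was under it without set 1, at 0.96. The members lower in macrophages then numbered 10 immediate-early genes, among them Ccn1 at -6.37, Egr3 at -3.52, Egr1 at -1.85 and Jun at -1.79, and 6 heat shock genes, among them Hspb1 at -5.68, Hspa1b at -1.24 and Hspa1a at -1.24 (without set 4 these were -0.98 and -0.73, and Fosb, at -1.28, went to -0.95), against 32.5% of genes. The carcinoma-like cells of this depth had a median mitochondrial share of 5.62%, against 1.36% in the macrophages, and a Malat1 share of 2.71%, against 0.901%. Xist stood at 3008 CPM in the carcinoma-like cells of this depth, against 1348 CPM in those of all depths. The part of these differences in the ratios was not tested.

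**Figure D3:**
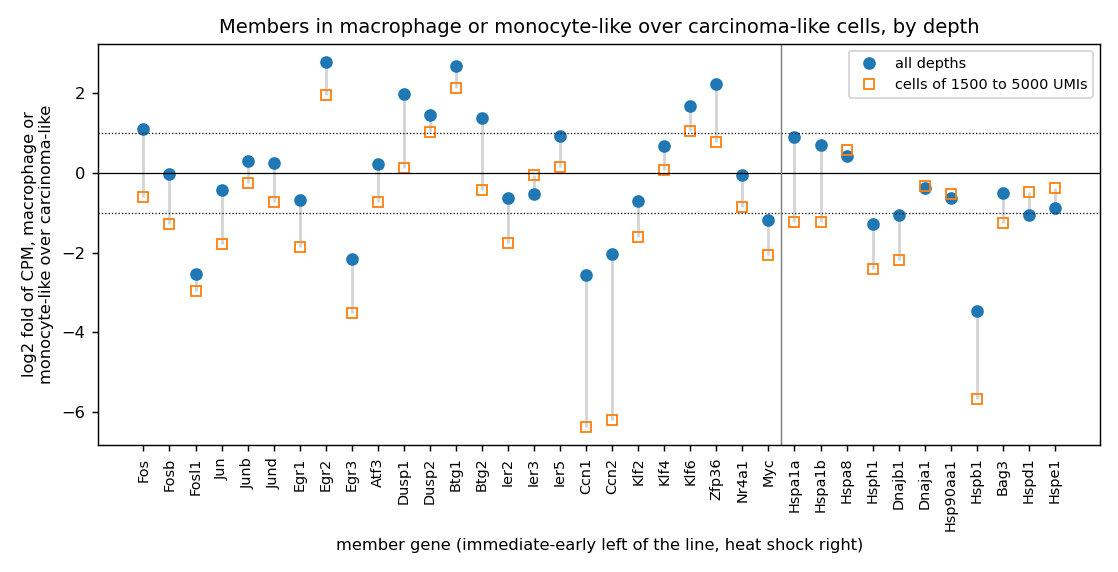
Log2 ratio of each member between macrophage or monocyte-like and carcinoma-like cells, over all cells and over cells of 1500 to 5000 UMIs. Fos goes from 1.12 to -0.60 and Dusp1 from 1.99 to 0.13, while Btg1 stays above 2 in both and Hspb1 stays below -3.

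Lymphoid cells were lower than carcinoma-like cells in Egr1 and Ier3, and their inducible HSP70 genes were highest by far in 1 barcode set. Not all AP-1 genes were low: Jund stood at 1654 CPM in T cell-like and 1141 CPM in NK cell-like cells, against 847 CPM in carcinoma-like cells, within 2-fold. In T cell-like cells Fos stood at 225 CPM and Egr1 at 175 CPM, a ratio of -2.08 to carcinoma-like cells, and Ier3 at 164 CPM, a ratio of -3.44. The members higher in T cell-like cells were Dusp2 at 2.34, Btg1 at 2.21 and Btg2 at 1.61, 3 of 25 against 17.1% of genes, and 9 were lower, against 25.7%. Hspa1b stood at 862, 1226, 1079, 1569 and 3466 CPM in sets 2 to 6, the 5 sets with at least 20 T cell-like cells, and at 1633 CPM in all, a ratio of 1.41 (95% counting interval 1.35 to 1.48). Hspa1a was higher by 1.49, also in 5 of 5 sets. Set 6 was far above the others, and without it the Hspa1b ratio was 0.92, under 2-fold, while Hspa1a was still called. Hspb1 was lower, at -4.21, and so was Bag3, at -1.29.

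In NK cell-like cells both inducible HSP70 genes were higher than in carcinoma-like cells. Their Hspa1b stood at 559, 854, 689.9, 1755, 1186 and 5936 CPM over the 6 sets and their Hspa1a at 246, 431, 206, 939.8, 891 and 2839.7 CPM, for ratios of 1.86 (95% counting interval 1.79 to 1.92) and 1.88 (95% counting interval 1.79 to 1.96). Hspa1b was above the carcinoma-like value in 5 of 6 sets. Again set 6 stood apart, and without it the Hspa1b ratio was 0.87 and the Hspa1a ratio 1.03. The carcinoma-like cells of set 6 were not the highest of the sets in either gene. Dusp2 was higher by 3.09, Btg2 by 2.08 and Btg1 by 1.60, 3 of 25 against 13.8%, and 10 were lower, against 29%, with Ier3 at -4.44. The lower call of Atf3, at -1.04, was lost without set 2, 3 or 4, at -0.96, -0.94 and -0.90. Hspb1 was lower, at -5.11. At 1500 to 5000 UMIs the HSP70 difference fell under 2-fold in both classes, and for Hspa1b in T cell-like cells its direction was reversed. Hspa1b then stood at 1848 CPM in T cell-like, 3279 CPM in NK cell-like and 2367 CPM in carcinoma-like cells. At that depth 2 immediate-early members were higher in each class, against 13.7% of genes for T cells and 12.1% for NK cells, and 16 and 15 were lower, against 30.9% and 33.7%.

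Osteoclast-like cells, multinucleate bone-resorbing cells that arise from the monocyte lineage, had the lowest immediate-early level at a depth near that of carcinoma-like cells, with a median of 9290 UMIs. None of the 25 immediate-early members was 2-fold higher than in carcinoma-like cells and 18 were lower, against 14.5% and 28.3% of genes. Btg2 stood at 3.82 CPM, a ratio of -4.31, Egr3 at 5.74 CPM, a ratio of -4.03, and Ier3 at 139.6 CPM, a ratio of -3.67 (95% counting interval -3.87 to -3.48). Fosb, Egr1, Nr4a1 and Dusp1 had ratios of -3.11, -2.75, -2.56 and -1.41. Fos was an exception at 542 CPM, above the 442 CPM of carcinoma-like cells; Fos is required for osteoclast formation in mice. The mitochondrial chaperonin genes were highest of the 10 classes, Hspd1 at 708 and Hspe1 at 1109 CPM. Only Hspb1 and Hsph1 among 11 heat shock members were called, with ratios of -4.00 and -1.48. Every call held without any 1 set, and the ratios moved by over 1.5 times for Egr2 and Ier3 without set 1, to -1.57 and -4.36, and for Fosb, Egr1, Atf3, Ccn1 and Klf2 without set 5, to between -5.53 and -3.29.

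Neutrophil-like cells had the highest Btg1, Dusp1, Zfp36 and Egr1 of the 10 classes, at 4129.9, 3414, 1925 and 1769 CPM. Their ratios to carcinoma-like cells were 3.18 (95% counting interval 3.05 to 3.30), 3.24 (95% counting interval 3.09 to 3.38), 2.49 (95% counting interval 2.30 to 2.68) and 1.26 (95% counting interval 1.06 to 1.46), and Btg2 was higher by 3.56. In all, 9 of 21 immediate-early members were higher and 4 lower, against 25.7% and 38.3% of the 2289 genes with enough counts. Ccn2 had 0 counts. There were 54 cells, and only set 6 held at least 20 of them, so spread over sets could not be given. Without set 6 the summed immediate-early level was 17906 CPM, still the highest of the classes, Dusp1 and Btg2 were higher by 2.65 and 2.62, and Egr1 and Fos, at 0.48 and 0.65, were no longer called. The lower calls of Klf4 and Ier2 were lost without set 6 too, at -0.45 and -0.98, and Dnajb1, at -1.11, was under 2-fold without set 5, at -0.83.

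Ccn2 was higher than in carcinoma-like cells in fibroblast-like, pericyte or smooth muscle-like and endothelial-like cells, and Fosb in the former pair. Fosb stood at 1043 CPM in fibroblast-like cells, a ratio of 1.48, and at 1171 CPM in pericyte or smooth muscle-like cells, a ratio of 1.65. Ccn2 stood at 434 CPM in pericyte or smooth muscle-like cells, 270.1 CPM in endothelial-like cells and 87.4 CPM in fibroblast-like cells, for ratios of 3.68 (95% counting interval 3.43 to 3.92), 3.00 (95% counting interval 2.70 to 3.28) and 1.37 (95% counting interval 1.14 to 1.60). In fibroblast-like cells 5 immediate-early members were higher and 1 lower, against 12.1% and 14.7% of genes, with Egr2 at 2.58, Btg2 at 1.68, Dusp1 at 1.12 and Dusp2 at -2.33. In pericyte or smooth muscle-like cells 5 of 24 were higher and 1 lower, against 15.8% and 13%, with Btg2 at 1.87, Nr4a1 at 1.86 and Fosl1 at -2.70. In endothelial-like cells 5 of 24 were higher and 3 lower, against 20.9% and 14.6%, with Dusp2 at 2.93, Dusp1 at 1.57 and Atf3 at 1.26. Hspa1a was higher by 1.53 in endothelial-like and 1.06 in pericyte or smooth muscle-like cells, and Hspb1 was lower in all 3 stromal classes, from -2.33 to -1.68. These classes are small, and without set 3 the fibroblast Ccn2 ratio was 0.95 and the pericyte Hspa1b and Hspa1a ratios were 0.83 and 0.81, all under 2-fold, as was Hspa1a there without set 2, at 0.91. The pericyte Ccn2 ratio was 2.79 without set 4. In endothelial-like cells Egr3 went from -1.57 to -0.88 without set 1, Btg2 from 1.16 to 0.91 without set 2 and Hspa1b from 1.20 to 0.89 without set 6, all then under 2-fold. The lower call of Dnajb1 there was lost without set 1, 3, 5 or 6.

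In mast cell or basophil-like cells Egr3 was higher than in carcinoma-like cells, at 451 CPM against 93.5 CPM, a ratio of 2.27 (95% counting interval 1.95 to 2.57). Btg1, Jund, Hspa1b and Hspa1a were higher by 2.18, 1.02, 1.90 and 1.60. Jund was no longer called without set 1, at 0.80. That made 3 of 22 immediate-early members higher and 6 lower, against 13.6% and 35.3% of 3197 genes. Without set 2, which held 34 of the 74 cells, Junb and Ier3 were no longer called lower, at -0.98 and -0.97, and Fosl1, Btg2, Ccn1, Klf4 and Hspb1 had ratios of -2.56, -1.38, -3.27, -2.02 and -6.03 in place of -3.52, -2.32, -4.24, -2.79 and -4.96. Over all sets Fosl1, Btg2 and Ccn1 had 3, 2 and 2 counts in these cells, so their ratios are imprecise: -3.52 (95% counting interval -5.80 to -1.97), -2.32 (95% counting interval -5.95 to -1.05) and -4.24 (95% counting interval -7.87 to -2.97). Ier3 was also lost without set 5 or set 6, at -0.91 and -0.94. Hspb1 was lower than in carcinoma-like cells in all 9 host classes.

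The other genes of both pathways were 30 on the immediate-early and 26 on the heat shock side. In macrophage or monocyte-like cells 8 of the 30 were higher, led by the p38 target kinase Mapkapk2 at 1.71, and 8 were lower, led by the receptor tyrosine kinase inhibitors Spry4 and Spry2 at -3.53 and -2.63 and by Cebpd at -2.29. Of the 26 heat shock pathway genes 0 were higher and 8 lower, led by the small heat shock proteins Cryab and Hspb8 at -3.19 and -2.57 and the HSP110 gene Hspa4l at -2.19. Over all genes of this comparison 15.3% were higher and 30.4% lower. The counts of lower genes lie near that share and are not read as a trait of either list. Like Hspb1, Cryab and Hspb8 belong to the small heat shock protein family.

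Members were also compared between states of carcinoma-like cells, and at most 1 of 36 was called in a direction in any state. These shares were under those of all genes where a member was called, so nothing about the members is read from them. For each of 8 marker lists, the 10% of cells with the highest share of that list's UMIs (726 cells) were set against the other 6531. In the matrix state, chosen on collagen genes, Btg2 was higher at 142 against 70.3 CPM, a log2 ratio of 1.01 (95% counting interval 0.91 to 1.11), and Hspd1 was lower at 198 against 455 CPM, a ratio of -1.20 (95% counting interval -1.28 to -1.12). That was 1 of 36 members each way, with Btg2 at 0.88 without set 5, against 7.28% and 6.55% of genes. In the mitotic state Ccn2 was lower at 11.9 against 37.1 CPM, a ratio of -1.63 (95% counting interval -1.87 to -1.41), with Nr4a1 just outside the threshold at -0.99, against 6.35% of genes lower and 2.83% higher. In the epithelial state Ccn2 was just outside at 0.97. No member reached 2-fold in the other 6 states. The shares of genes higher and lower were 4.47% and 3.52% in the epithelial state, 1.43% and 1.95% in the Tslp and Tac1 state, 2.39% and 2.17% in the Smoc2 and Abcg2 state, 3.77% and 4.14% in the hypoxic state, 2.25% and 0.874% in the interferon state, and 3.7% and 5.59% in the S-phase state. These states are ranges of a score, not cell types. The matrix state had a median of 7940 UMIs against 11884 and a median Malat1 share of 2.04% against 1.13%. The mitotic state had 17899.5 UMIs against 10883 and a Malat1 share of 0.703% against 1.29%. The part of depth and of this share in the member levels was not tested.

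Depth per cell was compared next. Within each set, the lowest quartile of carcinoma-like cells by UMIs (1851 cells, median 4909 UMIs) was set against the highest (1850 cells, median 21676 UMIs). Fos stood at 396, 804, 1449, 1726, 1302 and 852 CPM in the lowest quartile of sets 1 to 6 and at 206, 279.9, 714, 312, 216 and 288 CPM in the highest. Dusp1 stood at 367, 734, 1395, 1520.3, 1191 and 828 CPM and 165, 209, 398, 238, 220.1 and 242 CPM, and Hspa1b at 590.4, 992, 1576, 2463, 2378 and 1390.2 CPM and 221, 540.4, 881, 361, 501 and 477 CPM. For all 3 genes every set was higher in its lowest quartile, and the gap was widest in sets 4 and 5. The log2 ratios were 1.89 (95% counting interval 1.85 to 1.92) for Fos, 2.09 (95% counting interval 2.05 to 2.13) for Dusp1 and 1.88 (95% counting interval 1.85 to 1.92) for Hspa1b. Hspd1 went the other way, at 256, 226, 218, 214, 302 and 185 CPM in the lowest and 552, 659.9, 554, 546, 554 and 465 CPM in the highest quartile, a ratio of -1.22 (95% counting interval -1.28 to -1.15).

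In all, 14 of 25 immediate-early and 2 of 11 heat shock members were 2-fold or more higher in shallow cells, against 12.7% of 12078 genes, and Hspd1 alone was lower, against 4.95%. The 14 were Ccn2 at 2.26, Dusp1, Fos, Btg2 at 1.84, Ccn1 at 1.76, Zfp36 at 1.65, Fosb at 1.55, Egr2 at 1.38, Egr1 at 1.29, Ier2 at 1.19, Nr4a1 at 1.18, Jund at 1.06, Ier5 at 1.03 and Jun at 1.00. Jun lay just inside the threshold and Btg1, at 0.98, just outside. All were higher in 6 of 6 sets except Egr2, in 5. The median log2 ratio was 1.03 for immediate-early and 0.74 for heat shock members, beside 0.22 for all genes, and 22 of 25 immediate-early members were lower at every step from the lowest to the highest quartile. Without set 4 or set 5 Jun was no longer called, at 0.81 and 0.79, nor was Ier5 without set 2 or set 5, at 0.98 and 0.95. The shallow cells also had a higher median mitochondrial share, 4.10% against 2.31%, a higher Malat1 share, 2.17% against 0.822%, and more fibroblast markers, 6106 against 2005 CPM with all 10 detected, while the 58 immune markers summed to 314 against 354 CPM. Xist stood at 2311 CPM in the shallow and 1136 CPM in the deep cells. The carcinoma-like gate asked for at least 2 UMIs of Xist at any depth. The part of these in the member levels was not tested. Of the other pathway genes, 7 of 30 immediate-early genes were higher in shallow cells, led by Nr4a3, Socs3 and Gadd45b at 2.01, 1.74 and 1.40, and of 26 heat shock genes 2 were higher and 3 lower.

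Counted per cell without scaling, no member was scarcer in deep cells. Fos went from 4.95 to 6.67 UMIs per cell between the end quartiles, 1.35 times as many, and Dusp1 from 4.50 to 5.27, 1.17 times, while all UMIs grew 4.98 times. Hspa1b went from 7.41 to 9.99 UMIs per cell, 1.35 times, and Ccn2 was nearly level at 1.04 times. The members that grew more than depth were Hspd1, from 1.15 to 13.3 UMIs per cell or 11.6 times, Hspe1 at 8.67 times, Hsp90aa1 at 6.64 times, Ier3 at 6.13 times, Hspa8 at 5.88 times and Fosl1 at 5.01 times. The other 23 immediate-early and 7 heat shock members grew less than all UMIs did.

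The other RNA quality measures gave part of the same order. Cells in the lowest quartile of mitochondrial share (median 1.56%) had a median of 14084 UMIs and those in the highest (5.18%) had 6394. Lowest over highest, the log2 ratio was -1.63 for Dusp1, -1.44 for Fos, -1.42 for Btg2, -1.16 for Hspa1a and -1.10 for Hspa1b. With Ccn2, Nr4a1, Ccn1 and Zfp36 that made 7 immediate-early and 2 heat shock members lower and 0 higher, against 5.92% and 1.53% of genes. Without set 4 only Dusp1, Fos, Btg2 and Nr4a1 of these stayed at 2-fold, with Hspa1a at -0.61 and Hspa1b at -0.70. For the share of Malat1, a nuclear RNA, the lowest quartile had 13003 UMIs and the highest 7786, and 8 immediate-early and 2 heat shock members were lower where Malat1 was low, against 10.6%. Among these, Btg2 had a ratio of -1.84, Dusp1 -1.44, Fos -1.22 and Hspa1b -1.06. Without set 4 Hspa1b, Hspa1a, Zfp36 and Fosb were under 2-fold, from -0.66 to -0.99. Hspd1 and Hspe1 were higher by 1.27 and 1.05, against 5.24%, and Hspe1 was under 2-fold without set 4, at 0.94. When cells below and above the median of either share were compared within each UMI quartile, 0 members reached 2-fold, against 0.326% to 1.94% of genes, and the immediate-early medians were -0.17 and -0.26.

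**Figure D4:**
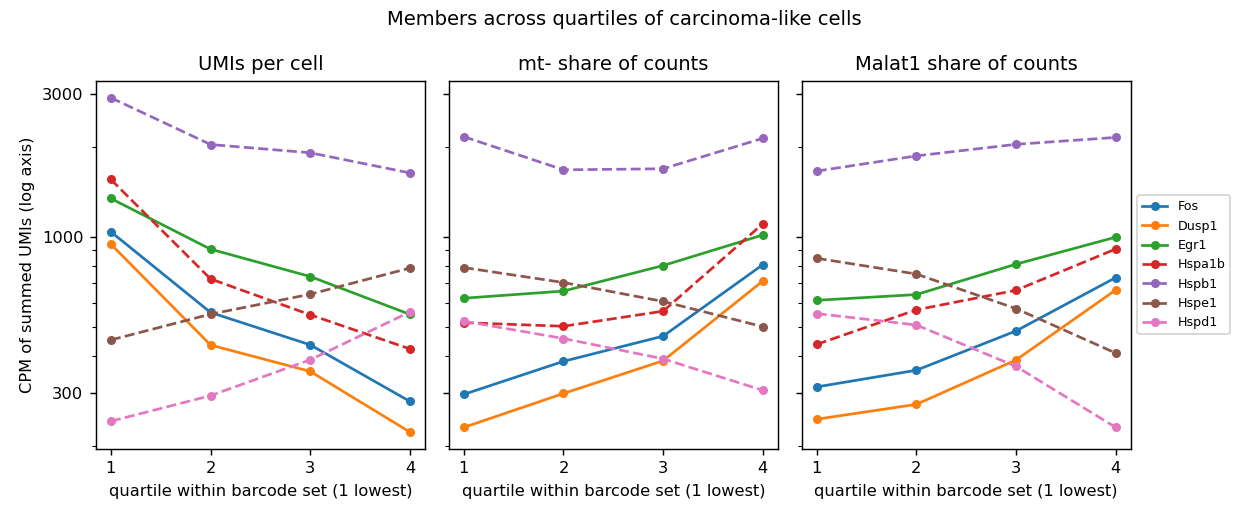
Level of members in carcinoma-like cells across the quartiles of UMIs per cell, mitochondrial share and Malat1 share, in CPM. Fos goes from 1039 to 281 CPM and Hspa1b from 1554 to 421 CPM from the lowest to the highest UMI quartile, while Hspd1 goes from 241 to 560.2 CPM.

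In macrophage or monocyte-like cells the same quartiles moved fewer members. Between the lowest and highest UMI quartile (medians of 1136 and 4504 UMIs), Hspa1b stood at 1888 against 802 CPM, a ratio of 1.23 (95% counting interval 1.12 to 1.35), and Hspa1a was higher by 1.04. Without set 4 these ratios were 0.58 and 0.44, under 2-fold. Klf2, Dusp2 and Btg1 were higher by 1.05, 1.03 and 1.03, and Ccn1, Egr3, Fosl1 and Hspb1 were lower at -1.61, -1.09, -1.01 and -1.11, against 2.48% and 8.42% of genes. Of these 7, only Ccn1 was called without each set in turn: the call was lost for Klf2 without set 3 or 5, Dusp2 without set 1 or 4, Btg1 without set 1 or 2, Egr3 without set 4 or 6, Fosl1 without set 1, 2, 3 or 5, and Hspb1 without set 5, with ratios from -0.73 to -0.98 for the lower genes and 0.76 to 1.00, just under 2-fold, for the higher. By mitochondrial share, Ccn1, Egr3 and 4 heat shock genes, Hspb1, Hspd1, Hsph1 and Dnajb1, were lower in the lowest quartile and 0 higher, against 8.15% and 2.38%, with Hspb1 at -2.23. Hsph1 was under 2-fold without set 1 or set 4, at -0.96 and -0.93, the Egr3 ratio of -1.94 was -2.81 without set 1, and the Ccn1 ratio of -2.80 was -2.16 without set 2 and -3.75 without set 4. By Malat1 share, Ccn1, Btg2 and Jun were lower and 0 higher, against 3.73% and 1.85%, and the Ccn1 ratio was -2.47 over all sets and -1.25 without set 2 and -3.38 without set 4. The fibroblast markers, which the carcinoma cells also carry, moved with all 3 measures, at 263 against 2141 CPM for UMIs, 240 against 1860 CPM for mitochondrial share and 382 against 1903 CPM for Malat1 share. Ccn1, Egr3, Fosl1, Hspb1, Hspd1, Hsph1 and Dnajb1 are also among the members called lower in macrophage or monocyte-like than in carcinoma-like cells, and the part of carcinoma RNA in these values was not tested.

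Clustering of all cells without the member and pathway genes gave 26 clusters, and 12 of them were of carcinoma-like cells. A cluster led by the noncoding gene Dnm3os (1076 cells, median 6096 UMIs) was compared with the other carcinoma-like clusters (8185 cells, 11760 UMIs), a comparison chosen after the values were seen. Its Hspa1a stood at 827 against 255 CPM, a log2 ratio of 1.70 (95% counting interval 1.66 to 1.74), and its Hspa1b at 1399 against 531 CPM, a ratio of 1.40 (95% counting interval 1.37 to 1.43). Among all genes ranked by their level in this cluster over all other clustered cells, Hspa1a came at place 2 and Hspa1b at place 5. These places rest on the same counts and add no support. Btg2, Dusp1, Ccn1, Ccn2 and Fos were higher by 1.30, 1.18, 1.07, 1.05 and 1.03, each in 5 of 5 sets, with Zfp36 just outside at 0.99. That was 7 of 36 members, against 1.8% of 12045 genes higher and 2.96% lower, and 0 of the 56 other pathway genes. The cluster made up 6.18%, 6.69%, 1.40%, 18.2%, 17.3% and 5.55% of carcinoma-like cluster cells in sets 1 to 6, so it was common in sets 4 and 5 and rare in set 3. Without set 4, which held much of it, Hspa1a and Hspa1b were still called, while Btg2, Dusp1, Ccn1, Ccn2 and Fos had ratios of 0.96, 0.86, 0.78, 0.74 and 0.70, all under 2-fold. Without set 1, Fos and Ccn2 fell just short at 0.99 and 0.94. Its median mitochondrial share was 4.09% against 2.64%, and the part of depth and of this share was not tested.

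The opposite pattern was found in a cluster of 213 cells in which the median Malat1 share was 0 and Xist stood at 17.9 CPM, and which was led by Rps26, Nefl, Cenpw and the proliferin gene Prl2c3. The cluster is unnamed, and nearly all of its cells lay outside the carcinoma-like gate, which requires Xist. Against the carcinoma-like clusters, all 25 immediate-early members were 2-fold or more lower. Egr1 stood at 6.70 against 721 CPM, a log2 ratio of -6.75 (95% counting interval -7.88 to -5.82), Ier3 at 30.5 against 1775 CPM, a ratio of -5.86 (95% counting interval -6.34 to -5.42), and Fos at 14.9 against 439 CPM, a ratio of -4.88 (95% counting interval -5.59 to -4.26). Dusp2 and Egr2 had 0 counts, Ccn2 1 and Btg2 3. Heat shock genes divided: Hspa1b, Hspa1a, Dnajb1, Bag3, Hsph1, Dnaja1 and Hspb1 were lower, from -4.39 to -1.21, while Hspd1 at 0.24, Hspe1 at 0.21, Hsp90aa1 at 0.03 and Hspa8 at -0.41 were within 2-fold. In this comparison 52.5% of 8409 genes were lower and 0.999% higher, and the median log2 ratio was -4.75 for immediate-early, -1.78 for heat shock and -1.09 for all genes. Of the other immediate-early pathway genes 25 of 29 were lower, led by Cebpd at -6.51, Spry2 at -5.40 and Nfkbiz at -5.32, and of the other heat shock pathway genes 7 of 26. All 6 sets held such cells, from 5 in set 3 to 74 in set 1. The median depth was 5544 UMIs, against 11219 over the cells of the carcinoma-like clusters. The median mitochondrial share was 3.72% against 2.73%. The part of depth and of this share in the levels was not tested. Set 5 held the cells with the highest members: without it, Ier2 had a ratio of -6.75 in place of -2.25, Junb of -5.88 in place of -3.33 and Dnajb1 of -5.62 in place of -3.37, and every call held without any 1 set.

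**Figure D5:**
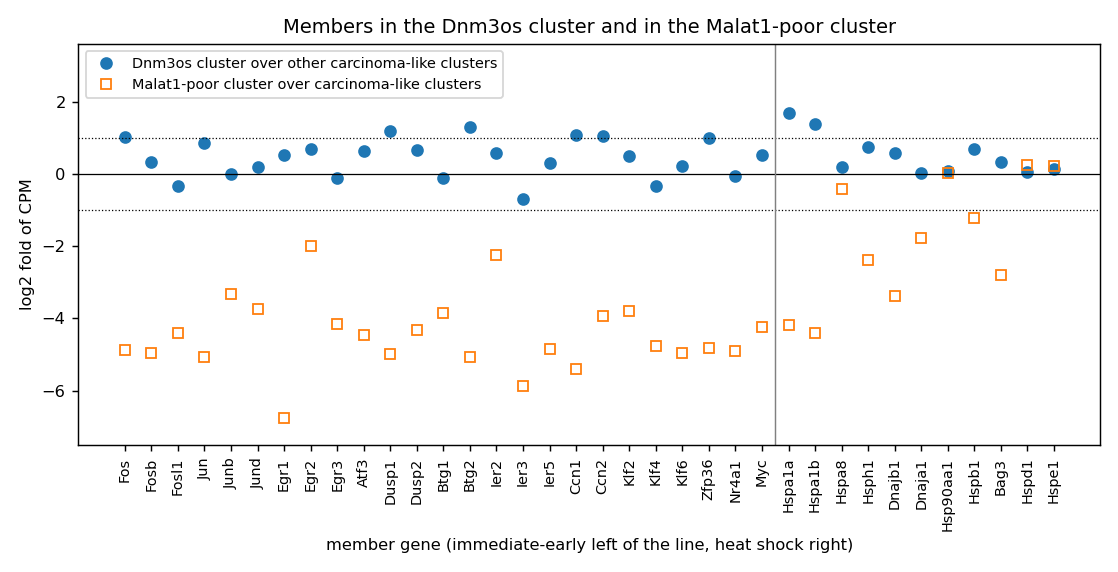
Log2 ratio of each member in the Dnm3os cluster against the other carcinoma-like clusters (circles) and in the Malat1-poor cluster against the carcinoma-like clusters (squares), with dotted lines at 2-fold. Hspa1a is at 1.70 and -4.18, all immediate-early squares lie below the lower dotted line, and Dusp2 and Egr2, with 0 counts in the Malat1-poor cluster, are drawn at the floor of 3 counts, as is Ccn2 with 1 count.

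The share of cells with a UMI is given for Fos, Hspa1b and Hspb1. With each cell thinned to 2000 UMIs, Fos had a UMI in 39.9% of 7257 carcinoma-like cells (95% exact binomial interval 38.8% to 41.1%), 63.5% of macrophage or monocyte-like cells and 22.2% of T cell-like cells. Unthinned, the shares were 73.1%, 70.8% and 29.7%. Hspa1b had a UMI in 49.3% of carcinoma-like, 29.8% of macrophage or monocyte-like and 42.9% of NK cell-like cells thinned, and 84.8%, 34.3% and 51.6% unthinned. The Hspa1b shares go against the levels, which were lower in carcinoma-like cells, so no order is read from them. Hspb1 had a UMI in 75.5% of thinned carcinoma-like cells, against 12.1% of macrophage or monocyte-like and 10.1% of NK cell-like cells. Free RNA gives UMIs in droplets of cells that do not express a gene, and a share as low as those is not read as expression. Thinning left out 138 carcinoma-like and 694 macrophage or monocyte-like cells with fewer UMIs.

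Over the same 7257 thinned carcinoma-like cells, members of a list varied together weakly. Pairs between the lists were weaker still by the median, with correlations up to 0.309. The highest Pearson correlations were 0.72 for Hspa1a with Hspa1b, 0.52 for Hsp90aa1 with Hspb1, 0.51 for Hspa1b with Hspb1 and 0.47 for Hspa1b with Hsph1. Among immediate-early genes they were 0.45 for Fos with Dusp1, 0.44 for Fos with Zfp36 and 0.43 for Fos with Jun. The median correlation was 0.183 over the 55 heat shock pairs, 0.0940 over the 300 immediate-early pairs and 0.0425 over the 275 pairs between the lists. The cells share library and tumor, so these values describe the cells and carry no test. Of 5208 other genes, the most correlated with the sum of Hspa1a and Hspa1b included the choline kinase gene Chka at 0.31, mt-Co1 at 0.28, Xist at 0.26 and mt-Atp6 at 0.25, and those with the sum of Fos, Jun and Egr1 included Hes1 at 0.31, Id3 at 0.31, mt-Co1 at 0.29 and mt-Atp6 at 0.27.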

How the data were processed

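Single-cell 3' libraries of 6 tumors were deposited as 1 matrix of raw UMI counts, which the authors made with Cell Ranger 7.1 on mm10, per the submitters' processing notes (the matrix header gives Cell Ranger 7.0.0), and Seurat 4.1.0 is named for later steps. Cells under 500 genes, cells at 15% mitochondrial counts or above, and scrublet calls were left out. A host class took a cell that had fewer than 2 UMIs of Xist and 3 or more of its markers. The cell had to have fewer markers of each other class, except that a tie with the fibroblast markers was allowed. Fibroblast-like cells were asked for no UMI of Xist and for a UMI of a Y-linked gene. Carcinoma-like cells had fewer than 3 markers of each host class other than fibroblasts. The UMIs of a class were summed and given as CPM. A gene was compared with at least 50 counts and a level at least 4 times that of the 3-count floor, which stood in for 0, and was called at 2-fold. Quartiles were taken within barcode sets. The steps were tested on simulated data, drawn from the carcinoma-like mean profile at the depths of macrophage or monocyte-like and of carcinoma-like cells. Over 9793 genes, the median ratio of estimated to true fold was 1.00 for 50 genes changed 2-fold and 0.998 for 50 changed 4-fold. It was 0.976 for 50 genes at 0.25-fold and for 50 at 0.5-fold, and 81 of 9593 unchanged genes passed 2-fold. No macrophage profile and no RNA from other cells was simulated. Clusters came from 3000 variable genes without the members or pathway genes, 40 components, 15 neighbours and Leiden resolution 1.

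All members are accounted for. Those with a 2-fold difference in any comparison, and the 5 highest of each list, are given with the value of each barcode set, and the others by range and count. A result of the correlation ranking is not reported here. The members, the pathway lists and the markers were chosen with earlier results of these data known. The level needed for a comparison, the Dnm3os and Malat1-poor clusters and the comparison within 1500 to 5000 UMIs were chosen after seeing the data. With 1 pooled sample no test was made, since cells are not replicates and no label ties cells to tumors. The total was 141434361 UMIs with a median of 7653.5 per deposited cell. Promoters are RefSeq's on GRCm38.p6, gene positions GENCODE's on GRCm38. Software was python 3.11.15, numpy 2.4.6, scipy 1.17.1, pandas 2.3.3, scanpy 1.11.5 and leidenalg 0.10.2. Alternatives changed the cell filters, gates, weighting, denominator, depth, quartiles and sets.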

Additional observations from a re-analysis of the deposited data

How the results depend on the processing

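No paired analysis was possible because the matrix columns carry no replicate number and no test was made. Of the settings, the window of 1500 to 5000 UMIs, chosen after seeing the data, moved the summed levels most. In its cells the macrophage or monocyte-like over carcinoma-like log2 ratio of the immediate-early sum went from 0.69 to -0.14. That of the heat shock sum went from -0.46 to -1.15. In the same cells Fos went to -0.60 and Btg2 to -0.42, the members higher in macrophages from 8 to 4, and those lower from 9 to 16. The carcinoma-like cells of this window also had higher mitochondrial and Malat1 shares than those of all depths. The cause of these reversals was not tested. Other settings moved the sums without changing direction. With minima of 1000 genes and a maximum of 10% mitochondrial counts they were 0.57 and -0.51, with a doublet score under 0.25 they were 0.72 and -0.49, and with Leiden clusters in place of gates 0.82 and -0.51. With the mean of each cell's CPM they were 0.65 and -0.51, without mitochondrial genes and Malat1 in the denominator 0.67 and -0.48, and with a carcinoma gate that does not use Xist (chosen after seeing the data) 0.71 and -0.44. The immediate-early sum was 0.70 with a minimum of 200 genes and a maximum of 25% mitochondrial counts, and 0.65 with 1 marker more in each gate. Leaving out 1 barcode set gave 0.66 to 0.77 and -0.52 to -0.42.

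The quality counts rest on the end quartiles. Members higher at low UMIs numbered 16, and 7 when cells below and above the median were compared. Members higher at high Malat1 numbered 10, and 1 in that comparison. Members higher at high mitochondrial share numbered 9, and 0 in it. Within UMI quartiles (chosen after seeing the data) both latter counts were 0. The mitochondrial count was 5 with the stricter cell filter, and 5 with the gate without Xist. Leaving out 1 set gave 15 to 20, 6 to 10 and 5 to 10, with the lowest values of the last 2 without set 4. Calls over the 8 states numbered 3, but 6 with the mean of each cell's CPM and 5 with the gate without Xist, and leaving out 1 set gave 3 to 5, with 5 without set 1 and without set 3. Members higher in macrophages numbered 7 to 9, and lower 8 to 9, without any 1 set. Without thinning, the shares with a UMI were 73.1% for Fos and 84.8% for Hspa1b in carcinoma-like cells and 70.8% and 34.3% in macrophage or monocyte-like cells.

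Over the single members, 270 of 272 values of called members kept their direction between the macrophage and carcinoma classes, the exceptions being Fos and Btg2 above, and 255 of 255 did between UMI quartiles. The level moved by over 1.5 times in 33 of 576 and 8 of 540 values. Members with few counts, such as Ccn2, Egr2 and Dusp2, are limited by depth in the small classes.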

Other observations

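The cells left out by the filters were richer in several members than those kept. In 251 cells with at least 15% mitochondrial counts (median 928 UMIs) Fos stood at 1123 CPM, Hspa1a at 1496 CPM and Hspa1b at 2342 CPM, and Hspd1 at 146 CPM. In 799 cells with under 500 genes (median 631 UMIs) the summed immediate-early level was 30167 CPM, with Fos at 1201 CPM, Hspa1b at 2106 CPM and Hspd1 at 99.3 CPM. In the kept cells the immediate-early sum was 10057 CPM and the heat shock sum 7425 CPM. Xist stood at 69.3 CPM in the 799 cells and at 2693 CPM in the 251 cells, against 1002 CPM in the kept cells. The cells left out were placed in no class, and the part of their makeup in these levels was not tested.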
